A study of Mus musculus with 4 samples.

Results

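The distal ends of mouse chromosomes 1 to 19 were examined for H3K9me3, trimethylation of lysine 9 on histone H3, in cultured muscle stem cells. A peak belonged to a distal end when its midpoint lay within 3 Mb of the largest peak end on its chromosome over both deposited lists. By this rule 2279 of 103258 control peaks on these chromosomes were distal (2.21%, Wilson interval 2.12 to 2.30%), and 2473 of 108595 peaks of the deleted list (2.28%, 2.19 to 2.37%). With all other sequences the lists held 105864 and 113688 peaks. The 19 windows made up 2.38% of the chromosome length between the first and last peaks. The limit of 3 Mb fell within a continuing run of peaks: the last 100 kb inside it held 73 control and 87 deleted-list peaks over the 19 chromosomes, and the first 100 kb beyond it 52 and 98.

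The muscle stem cells came from mice with a conditional Setdb1 deletion, were isolated by magnetic sorting and were cultured. Both cultures carried loxP-flanked Setdb1 and a tamoxifen-inducible Cre driven from Pax7. The genotype is written Setdb1lox/lox;Pax7GakaCreERT2 for the control library and Setdb1lox/lox;Pax7GakaCreERT3 for the other. The control culture received ethanol, and the other received 4-hydroxytamoxifen to delete Setdb1, with chromatin taken after 72 h. The recombination depends on Pax7 expression in each cell, and no label gives the age or number of animals. With 1 H3K9me3 library per condition, no difference has a replicate check. The lists do not measure whether Setdb1 was cut, and a list of a silencing mark cannot check the cell type. Itga7, an integrin gene that marks muscle stem cells and lies inside a distal window, had no peak in its gene window in either list. Chromosome 6 was covered much less in the deleted list along its length, and chromosome 14 was sparsely covered in both lists, so results are also given without them where they matter.

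SETDB1 is a methyltransferase that places H3K9me3, mainly on retrotransposons and on some clustered gene families, where the mark is read by HP1 proteins and genes are kept silent. Mouse chromosomes have their centromere at the end from which coordinates are counted, so the largest coordinates lie at the other, distal telomere. Next to the telomere repeat lies the subtelomere, a stretch rich in repeats and duplicated genes, and inward of it the distal arms of many chromosomes are gene-rich.

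Only 3 of the 694 distal promoters examined lay wholly inside a peak of either list. Their sequences are shown because the mark covered them whole. Each is 300 bases long, 250 before and 50 after the start, from RefSeq (GRCm38.p6), written 5′ to 3′ on the gene's own + strand in lower case, with every CG dinucleotide in capitals. CG is the site of DNA methylation in mammals.
Vmn2r129 (chr4:156330853-156331152): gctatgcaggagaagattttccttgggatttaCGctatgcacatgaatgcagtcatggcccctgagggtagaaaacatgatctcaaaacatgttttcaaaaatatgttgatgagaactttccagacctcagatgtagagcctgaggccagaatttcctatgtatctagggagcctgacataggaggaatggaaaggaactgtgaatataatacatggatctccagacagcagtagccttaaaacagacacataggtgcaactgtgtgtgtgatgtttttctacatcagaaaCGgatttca
Olfr781 (chr10:129332633-129332932): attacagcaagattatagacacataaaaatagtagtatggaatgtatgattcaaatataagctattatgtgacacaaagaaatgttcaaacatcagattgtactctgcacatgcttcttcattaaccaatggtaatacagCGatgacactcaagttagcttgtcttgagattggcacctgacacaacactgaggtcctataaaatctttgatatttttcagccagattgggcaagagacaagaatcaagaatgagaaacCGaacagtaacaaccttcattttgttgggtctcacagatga
Olfr774 (chr10:129237901-129238200): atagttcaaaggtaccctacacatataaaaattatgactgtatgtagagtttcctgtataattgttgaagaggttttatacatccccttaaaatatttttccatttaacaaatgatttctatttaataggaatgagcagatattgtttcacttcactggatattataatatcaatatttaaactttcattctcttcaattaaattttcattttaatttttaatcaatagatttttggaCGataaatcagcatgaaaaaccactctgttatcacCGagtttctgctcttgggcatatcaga

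Vmn2r129 encodes a vomeronasal (pheromone) receptor, and its promoter was inside a peak of fold 2.38 (control) and 2.31 (deleted list), the authors' values within each list. Olfr781 and Olfr774 encode odorant receptors, and their promoters were inside a peak of the deleted list alone, of fold 2.60 and 2.38. All 3 promoters hold 2 CG each, against a median of 15 over 694 distal promoters of protein-coding genes and 14 over 19390 elsewhere on chromosomes 1 to 19. The 407 promoters elsewhere that lay wholly inside a peak of either list had a median of 1 CG, so few CG was not particular to the distal ones. The promoter table matched 575 protein-coding genes of the distal windows, while 725 reach into them, so some gene starts were not examined. At least 1 CG stood in 94.4% of the distal promoters and in 95.6% of the others. The telomere repeat unit TTAGGG, searched on both strands (CCCTAA on the printed strand), was in none of the 3 and in 10.5% of distal and 10.5% of other promoters. Peaks of either list touched 4 of the 694 distal promoters (0.576%, Wilson interval 0.224 to 1.47%), against 3.27% (3.03 to 3.53%) of the promoters elsewhere.

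Over all chromosomes the distal windows were covered about as much as the rest, but single chromosomes differed widely. Control peaks covered 3.06 Mb of the windows and deleted-list peaks 3.199 Mb. This was 5.38% and 5.61% of their bases, against 5.48% and 5.39% in the rest. The median window was covered at only 2.91% and 3.24%. In the control list 6 of 19 windows were covered more than the rest of their own chromosome and 13 less, and in the deleted list 7 more and 12 less. Those above were on chromosomes 3, 10, 13, 14, 17 and 18, and in the deleted list also on chromosome 16.

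**Figure D1:**
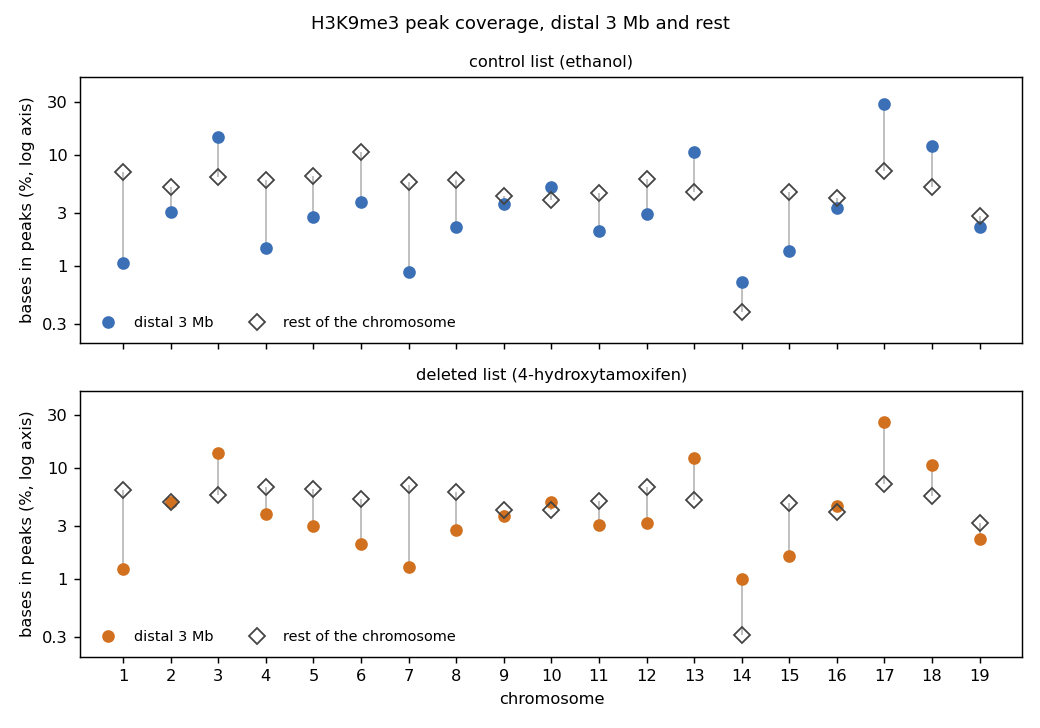
Percent of bases in H3K9me3 peaks (vertical axis, log scale) in the distal 3 Mb (filled circles) and in the rest (open diamonds) of each of 19 chromosomes (horizontal axis), for the control list (top) and the deleted list (bottom), 1 library each. Chromosomes 3, 13, 17 and 18 stand above their rest in both lists, and the windows of chromosomes 1 and 7 lie far below it.

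The window of chromosome 17 carried the most, at 28.8% (control) and 26.1% (deleted list), against 7.06% and 7.24% in the rest of that chromosome. It held 557 and 551 peaks, and only 3 protein-coding genes reach into it: Adcyap1, which encodes the neuropeptide PACAP, Mettl4 and the predicted gene Gm20939. Such genes took up 1.70% of its bases. The windows of chromosomes 3, 18 and 13 followed in the control list. That of chromosome 3 was covered at 14.4% and 13.7%, that of chromosome 18 at 11.98% and 10.8%, and that of chromosome 13 at 10.6% and 12.3%. In both lists these windows lay at 1.90 times the rest of their chromosome or more. Together these 4 windows held 64.4% of the distal covered bases of the control list, and 58.98% of those of the other. The other 15 windows averaged 2.42% and 2.92%.

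The lightest windows lay on chromosomes 14, 7 and 1. Chromosome 7 was covered at 0.880% and 1.28% in its window, 0.154 and 0.181 times its rest, and chromosome 1 at 1.06% and 1.23%, 0.153 and 0.192 times its rest. Chromosome 14 was covered at 0.708% and 1.01%. Its window was nevertheless above its rest, which stood at 0.382% and 0.312%. When each chromosome was cut into tiles of 3 Mb from the same end, the distal tile of chromosome 17 ranked 29 of 30 from the lowest for control peaks and 28 for deleted-list peaks, and that of chromosome 7 ranked 4 and 7 of 47. In the control list 9 of 19 windows ranked below the middle of the tiles of their chromosome, and 8 in the deleted list.

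Windows with less of their length in protein-coding genes were covered more. Across the 19 windows, Spearman's rho between the percent of bases in peaks and in protein-coding genes was -0.593 for control peaks and -0.442 for deleted-list peaks, points that share a library and its depth. Over all 791 tiles of 3 Mb it was -0.414 and -0.374. Protein-coding genes took up 45.0% of the distal bases and 40.8% of the rest. Among tiles with 25 to 50% of bases in such genes, the 11 distal windows had median coverages of 3.58% and 3.24%, and the 324 others 2.67% and 2.96%. Among those with 50 to 75%, the 6 distal windows had 2.38% and 3.47%, and the 257 others 1.70% and 1.85%.

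**Figure D2:**
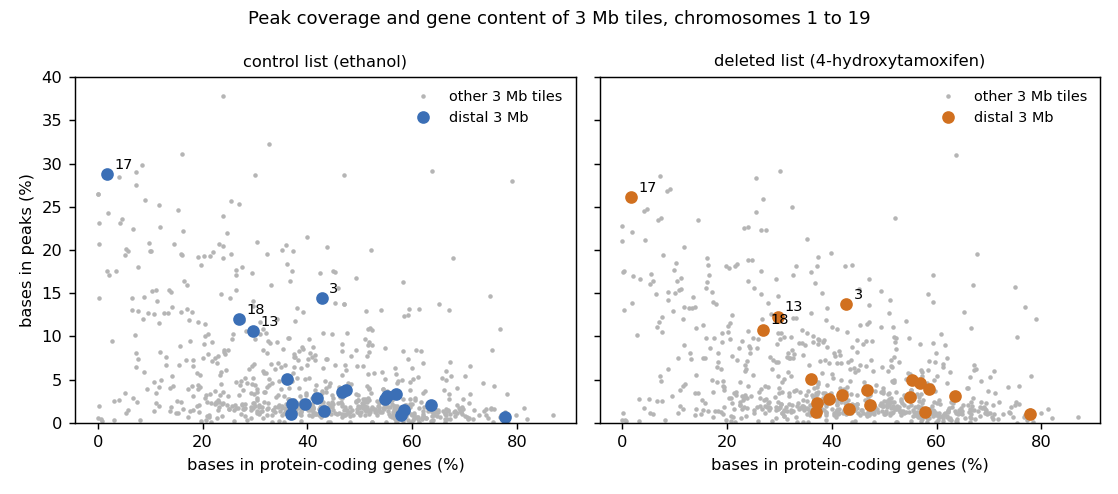
Percent of bases in peaks (vertical axis) against percent of bases in protein-coding genes (horizontal axis) for tiles of 3 Mb on chromosomes 1 to 19, counted back from the distal end, in the control list (left) and the deleted list (right). Coloured circles are the 19 distal windows and grey points the other tiles; numbers name the chromosomes of the 4 heavily covered windows, which lie among the grey tiles of like gene content.

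Within the windows the median coverage over the chromosomes was highest at the very end. The last 250 kb, 8.33% of the window length, held 18.1% (control) and 19.1% (deleted list) of the distal covered bases, so most lay further in. Of the heavily covered windows, those of chromosomes 3, 13 and 17 were covered less there than in their remainder, and that of chromosome 18 more. The last 250 kb had median coverages over the 19 chromosomes of 11.0% (control) and 9.25% (deleted list), and the next 250 kb only 2.07% and 1.63%. Steps further in, up to 3 Mb, had medians between 0.442 and 2.61% for control peaks and between 0.620 and 2.58% for deleted-list peaks. Means were higher than medians in each step, at 11.7% and 12.9% in the last 250 kb and 5.68% and 5.19% in the next. The median 250 kb tile of chromosomes 1 to 19 was covered at 1.68% and 1.67%. The last 250 kb were also the poorest in genes. Protein-coding genes took up on average 31.3% of their bases, 38.8% in the next 250 kb and 40.6 to 55.2% in the steps further in. The part of gene content in the coverage of the last 250 kb was not tested. The end of each window was set by a peak, which by construction lies in the last 250 kb, but without the last peak of each list the medians were still 10.6% and 9.14%. With the largest gene end as the anchor in place of a peak they were 10.9% and 9.20%.

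**Figure D3:**
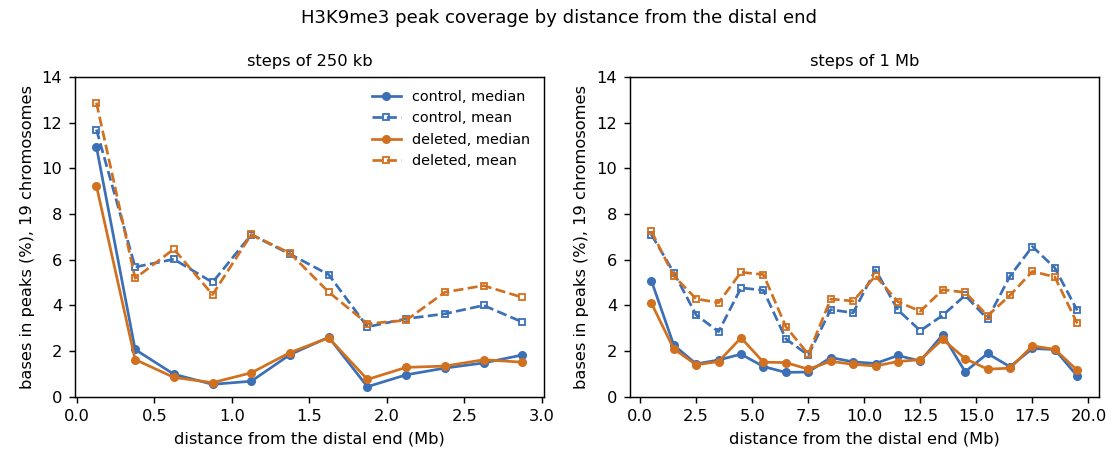
Percent of bases in peaks (vertical axis) by distance from the distal end in Mb (horizontal axis), in steps of 250 kb to 3 Mb (left) and of 1 Mb to 20 Mb (right). Solid lines with circles are medians and dashed lines with squares means over 19 chromosomes, blue for the control and orange for the deleted list; the highest point of each line on the left is the last 250 kb.

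The last 250 kb were covered more than the remainder of the window on 15 of 19 chromosomes in both lists. The exceptions were chromosomes 3, 7, 13 and 17. Without the last peak of each list the number was 15 in the control and 14 in the deleted list. On chromosome 11 the contrast was widest, with 21.8% and 33.1% in the last 250 kb and 0.234% and 0.366% in the remainder of the window. On chromosome 9 the last 250 kb stood at 22.5% and 25.2%, on chromosome 16 at 22.0% and 25.3%, and on chromosome 19 at 17.9% and 18.2%. On chromosome 15, where they stood at 13.2% and 14.6%, they held 81.7% and 74.5% of all covered bases of the window. Coverage of 10% or more in both lists was found in 9 of the 19 terminal stretches (47.4%), against a background of 15.9% of 9581 tiles of 250 kb. They were those of chromosomes 8, 9, 10, 11, 15, 16, 17, 18 and 19. The terminal stretch ranked among the highest 10% of the 250 kb tiles of its own chromosome on 7 of 19 chromosomes in each list. The end of chromosome 7 was almost bare, at 0.289% and 0.214%.

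**Figure D4:**
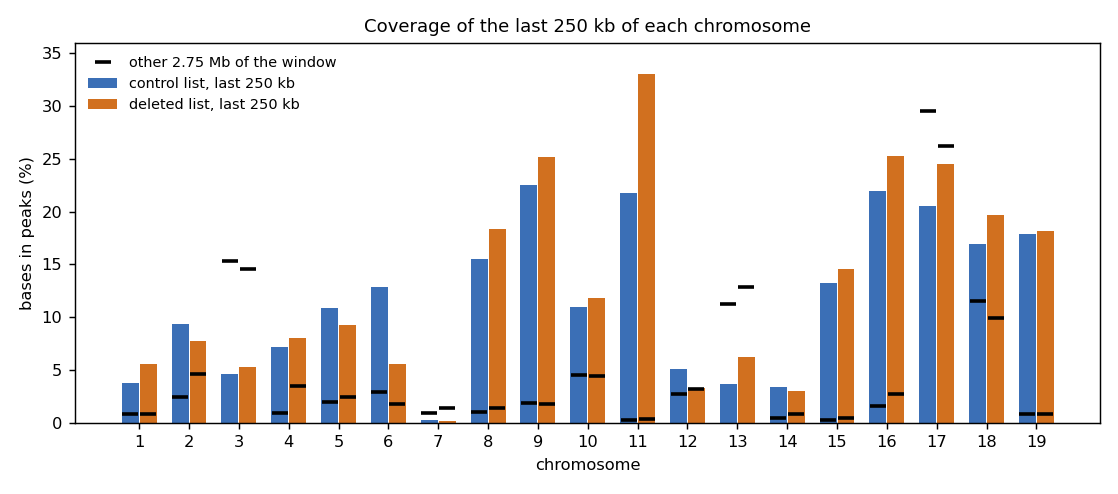
Percent of bases in peaks (vertical axis, from 0) in the last 250 kb of each of 19 chromosomes (horizontal axis), as bars for the control (blue) and deleted (orange) list, with black marks for the remainder of the same window. The bars stand above the marks on 15 chromosomes in both lists and below them on chromosomes 3, 7, 13 and 17.

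Peaks with the authors' −log10 q of 3 or more took up a larger share of the terminal peaks than of the other distal peaks, although nearly all such peaks lay elsewhere in the genome. The highest −log10 q in the windows was 14.3 (control) and 20.3 (deleted list), against 1505 and 1720 in the rest. Of 1914 control peaks at this level on chromosomes 1 to 19, 65 lay in the windows (3.40%, Wilson interval 2.67 to 4.31%) and 40 of these in the last 250 kb (2.09%, 1.54 to 2.83%), which make up 0.198% of the length. In the deleted list 38 of 1091 such peaks lay in the windows (3.48%, 2.55 to 4.74%) and 21 in the last 250 kb (1.92%, 1.26 to 2.93%). The 40 control peaks were spread over 15 chromosomes, with at most 6 on chromosome 19, and the 21 deleted-list peaks over 10. Among the 328 control peaks of the terminal stretches 12.2% reached this level (9.08 to 16.2%), against 1.28% of the 1951 peaks of the remainder of the window. In the deleted list it was 6.69% of 314 (4.42 to 10.0%) against 0.787% of 2159. Terminal peaks were also wider, with median widths of 1058 and 1103 bp against 935 and 897 bp. Widths and folds over all distal peaks were close to those of the rest: median widths were 947 bp (control) and 919 bp (deleted list), against 911 and 861 bp. The median fold was 2.57 in both parts of the control list, and 2.60 in the distal and 2.59 in the other part of the deleted list.

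The widest members lay near the ends of chromosomes 11, 16, 17 and 19. At the end of chromosome 11, beside Ptchd3, which encodes a patched domain protein, the widest control member (12628 bp, fold 3.48) and a deleted-list peak of 16567 bp (fold 3.796) overlapped the noncoding gene Gm12586, about 110 kb from the end. All folds here are the authors', each read within its own list. The widest deleted-list member, 20350 bp with fold 3.32, lay over B230307C23Rik on chromosome 16. The last 100 kb of chromosome 16, with that gene and the pseudogene Vmn2r-ps112, was covered at 49.4% and 55.7% and was the bin of 100 kb most heavily covered in both lists. On chromosome 19 a control peak of 11179 bp (fold 3.21) lay in Zfp950, a zinc finger gene. On chromosome 6 the last control peak, 5156 bp with fold 3.98 over the predicted gene Gm21814, lay at the very end, and its deleted-list partner was 7179 bp wide with fold 3.06. The control and deleted lists ended on chromosome 9 at the same base, with peaks of 4653 and 6721 bp and folds of 3.65 and 3.49. The highest folds of the windows were elsewhere: 4.01 in the control list on chromosome 1, 158.9 kb from Camk1g, and 4.14 in the deleted list in Lyzl4, a lysozyme-like gene on chromosome 9. Both had a partner in the other list.

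The distal windows were covered slightly more in the deleted list, while 3 of the 4 most heavily covered windows were covered less. Covered bases were higher in the deleted list in 14 of 19 windows and lower in 5, those of chromosomes 3, 6, 10, 17 and 18. In the rest of the chromosome they were lower on chromosomes 1, 2, 3, 6, 9, 14 and 16 and higher on the others. The direction was not counted over all tiles of 3 Mb, so the 14 windows have no such background and are not read as a trait of the distal ends. The ratio of deleted to control bases was 1.04 over all windows and 0.983 over the rest of the chromosomes. Without chromosomes 6 and 14 it was 1.06 and 1.05, so that windows and rest then lay on the same side of 1. It was 1.20 over the 15 windows other than those of chromosomes 3, 13, 17 and 18, and 0.917 over those of chromosomes 3, 17 and 18. In 14 of 19 chromosomes the window's ratio was above that of the rest of its own chromosome. In the last 250 kb alone the ratio was 1.10, with 13 chromosomes higher and 6 lower, and in the remainder of the window it was 1.03. The direction turned among peaks of −log10 q of 2 or more, where 6 of 19 windows were higher in the deleted list. The log2 ratio over all windows was then -0.36, against 0.06 for all peaks. Such peaks numbered 466 (control) and 338 (deleted list) in the windows, and 19178 and 12352 in the rest of the chromosomes. They were thus fewer in the deleted list in both parts. Depth is unknown, and its part in these ratios was not tested.

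**Figure D5:**
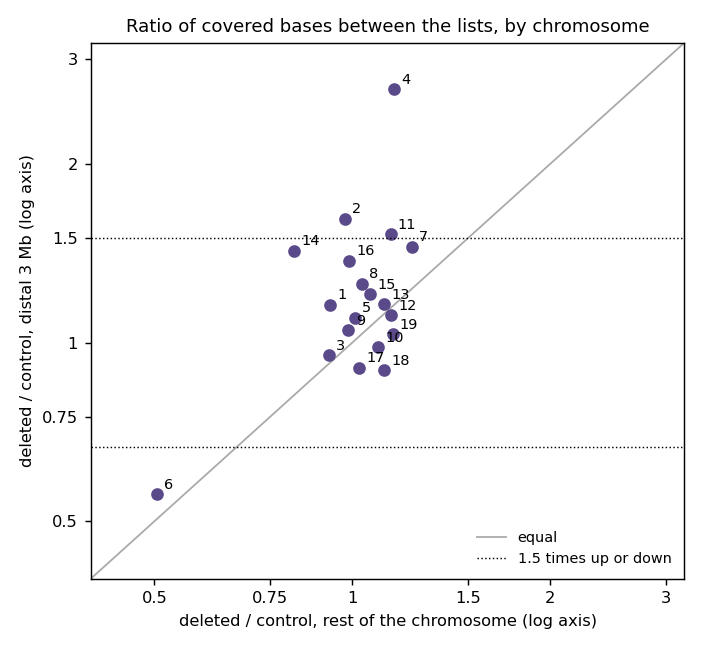
Ratio of covered bases, deleted to control list, in the distal 3 Mb (vertical axis) against that in the rest of the chromosome (horizontal axis), both log scales, 1 point per chromosome. The solid line marks equal ratios and the horizontal dotted lines a window ratio of 1.5 times up or down. Chromosomes 2, 4 and 11 lie above the upper dotted line and chromosome 6 below the lower one.

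Covered bases were at least 1.5 times higher in the deleted list in 3 of 19 windows (15.8%), against a background of 8.98% of 791 tiles of 3 Mb. They were at least 1.5 times lower in 1 window (5.26%), against 7.33% of the tiles. That window was on chromosome 6, at 3.74% and 2.08%, a ratio of 0.556, where the rest of the chromosome had 0.504. Without chromosomes 6 and 14 it was 3 of 17 windows higher (17.6%, background 9.23%) and 0 lower (background 0.852%). With so few windows the counts cannot be set apart from the background. On chromosome 4 the window held 42 control and 102 deleted-list peaks and was covered at 1.44% and 3.86%, a ratio of 2.67, while the rest of the chromosome had 1.16. The difference was largest at the inner edge: the segment 2500 to 3000 kb from the end was covered at 3.29% and 11.8%, and the last 500 kb at 3.58% and 4.23%. On chromosome 2, at 3.04% and 4.92%, the segment 2500 to 3000 kb from the end again differed most, at 9.55% and 16.9%. On chromosome 11, at 2.03% and 3.09%, the difference was in the last 500 kb, at 10.9% and 16.5%. The next 3 Mb tile inward also had a ratio above 1.5 on each, at 2.21 on chromosome 4, 1.57 on chromosome 2 and 1.62 on chromosome 11. These rises were thus not particular to the distal windows.

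Distal peaks were found in the other list about as often as peaks elsewhere. Of the control members 1016 of 2279 were not overlapped by any deleted-list peak (44.6%, Wilson interval 42.6 to 46.6%), and the background over chromosomes 1 to 19 was 46.7%. Of the deleted-list members 1192 of 2473 had no control peak (48.2%, 46.2 to 50.2%), with a background of 48.5%. The lists shared 1.29 Mb of the windows, 25.9% of the bases in either. Sharing was highest on chromosome 11, at 54.2% of the bases in either list, and lowest on chromosome 14, at 2.87%. On chromosome 4, 75.5% of deleted-list members had no partner, and 38.1% of control members. In the terminal 250 kb 39.6% of control members (34.5 to 45.0%) and 40.4% of deleted-list members (35.2 to 46.0%) had none. Members without a partner were narrower, with median widths of 660 and 678 bp against 1267 and 1273 bp, and a wider peak meets a partner more easily under a rule of 1 bp.

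With windows of 3 Mb, a larger share of distal peaks than of peaks elsewhere lay in protein-coding genes, but not in the last 1 Mb. Midpoints fell in such genes for 25.2% of control members (Wilson interval 23.5 to 27.1%) and 27.3% of deleted-list members (25.5 to 29.0%), against 21.5% and 21.9% in the rest. With windows of 1 Mb the shares were 18.8% and 18.1%, below those of the rest. The share of bases in such genes was also higher in the windows, at 45.0% against 40.8%. Without chromosome 17 the shares were 33.3% and 35.0%. Of the control members 58.3%, and of the deleted-list members 56.4%, lay over 5 kb from every gene.

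Of 725 protein-coding genes reaching into the windows, 220 had a peak in their gene window in at least 1 list. Coverage was higher in the deleted list for 127 of them and lower for 93. These counts were not made over all 20661 protein-coding genes of chromosomes 1 to 19, so they show no trait of the distal genes. A difference of at least 10 percentage points upward was found for 18 genes (2.48%), against a background of 2.44% of 20661 genes, and downward for 12 (1.66%), against 2.67%. Mean coverage over the 725 was 2.12% and 2.34%, and the median was 0% in both.

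Over all 725 protein-coding genes 69.7% had no peak. The windows held 58 olfactory receptor genes, which encode odorant receptors, all on chromosome 10. Of these 15 had the higher coverage in the deleted list, 19 the lower, and 24 (41.4%) had no peak, with means of 5.86% and 5.41% and a median of 0%. Neighbouring genes differed in opposite directions. Olfr781 was covered at 25.4% and 45.4%, and Olfr782, the next gene, at 42.6% and 2.87%. Olfr792 was covered at 12.1% and 32.5% and Olfr773 at 3.42% and 19.2%. Olfr791 was covered at 35.0% and 21.4%, and Olfr770 and Olfr776 at 13.1% and 11.5% in the control list and at 0% in the deleted list. Within the gene body alone Olfr781 was covered at 0% and 54.0%, and Olfr782 at 0% in both lists, so that the peaks of the latter lay in its flanks. With peaks within 5 kb joined, the difference of Olfr781 turned from 20.1 to -33.0 points. Of 6 vomeronasal receptor genes, 4 had the higher coverage in the deleted list, 1 the lower and 1 none. Vmn2r129, whose promoter is printed above, was covered at 49.8% and 58.3%, while Vmn2r18 stood at 3.92% and 0%.

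Some zinc finger genes encode repressors that bring SETDB1 to DNA through KAP1. Counted by symbol, 14 zinc finger genes lay in the windows, and which of them encode such repressors was not checked. Of these 5 were higher in the deleted list, 1 was lower and 8 (57.1%) had no peak, and none differed by 10 points. The window of chromosome 9 held Zkscan7 (21.7% and 22.7%), Zfp105 (17.3% and 19.3%), Zfp445 (11.7% and 7.92%), Zfp660 (3.44% and 5.39%) and Zfp651 (0% in both lists). Zfp950 on chromosome 19 stood at 17.2% and 20.7%. The chemokine genes of the windows, 9 in all, guide leukocyte migration. Of these 4 were covered less in the deleted list and 5 had no peak. Ccr2, the receptor on inflammatory monocytes, stood at 7.13% and 0%, and Ccr9, a receptor of gut-homing lymphocytes, at 12.8% and 11.4%. No difference in this group reached 10 points.

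The imprinted cluster of distal chromosome 7, expressed from 1 parental copy, overlaps its window. Of its 15 listed genes 6 were higher in the deleted list, 1 was lower and 8 had no peak. Of all 44 protein-coding genes of that window 9 were higher, 3 lower and 32 without a peak, and the whole chromosome was covered more in the deleted list, with ratios of 1.45 in the window and 1.23 in the rest. Kcnq1ot1, the noncoding RNA that silences its neighbours on the paternal copy, was covered at 8.13% and 13.1%, Igf2, a fetal growth factor gene, at 5.13% and 7.04%, and Ins2, an insulin gene, at 0% and 9.63%. Peaks carry no strand, so those of Kcnq1ot1 and of Kcnq1 (2.73% and 4.42%), in which it lies, cannot be told apart. No peak lay in the windows of H19 or Cdkn1c. Keratin genes of chromosome 15, the intermediate filaments of epithelia, numbered 26. Of these 3 were higher in the deleted list, 4 were lower and 19 (73.1%) had no peak, near the share over all genes of the windows, with means of 0.512% and 0.322%. None of 9 Hoxc genes, which pattern the body axis, and none of 3 ribosomal protein genes had a peak. Of 5 fibroblast growth factor genes 2 were covered. Fgf10, needed for limb and lung outgrowth, stood at 36.1% and 29.2% and Fgf14 at 1.97% and 3.66%.

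With Gm, Rik and LOC names skipped, the most covered protein-coding gene of each window could lie anywhere in its 3 Mb. Several protein-coding genes of the last 250 kb carry such names, so the places of the named genes depend on this rule. On chromosomes 3 and 18 the genes named were long neuronal genes. Lrrc7, which encodes a protein of the postsynaptic density, stood at 16.6% and 11.0%, and Dok6, an adaptor of receptor tyrosine kinases, at 27.1% and 23.2%. On chromosome 2 it was Cdh4, a cadherin gene 2328 kb from the end, at 4.54% and 8.67%, below the skipped Gm40035 at 57.5% and 47.0%, and on chromosome 8 Ccdc7a at 10.3% and 13.4%. On chromosome 12 the developmental transcription factor gene Sp8 stood at 6.48% and 13.7%. On chromosome 16 the transcription factor gene Ets2 stood at 6.94% and 7.31%. The skipped B230307C23Rik of that chromosome was overlapped by a deleted-list peak of 20350 bp. On chromosome 5 the glucosyltransferase gene B3glct stood at 3.99% and 6.29%. On chromosome 1 the complement receptor gene Cr2 stood at 3.03% and 2.07%. In the most heavily covered window, that of chromosome 17, Adcyap1 stood at 10.7% and 0%. The skipped Gm20939 of that window was overlapped by peaks of 11163 bp (control) and 11614 bp (deleted list). On chromosome 6 Rep15, which encodes an effector of the trafficking protein Rab15, stood at 13.2% and 0%. The skipped Gm21814 there was overlapped by peaks of 5156 and 7179 bp.

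Among protein-coding genes the widest difference upward was at Ptchd3 on chromosome 11, at 12.9% and 48.3%, and the widest downward at Olfr782. Mucl2, a mucin-like gene of chromosome 15 and the only protein-coding gene in its last 250 kb, stood at 40.3% and 22.4%. Rdh9, a retinol dehydrogenase gene of chromosome 10, stood at 5.22% and 25.2%, and Glycam1, which encodes a mucin of lymph node vessels and milk, at 0% and 15.8%. Many of these differences rest on peaks of low confidence: 22 of the 27 named genes had a difference of 0 points among peaks of −log10 q of 3 or more, and 8 among those of 2 or more.

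In bins of 100 kb, 10 of 570 distal bins were at least 10 points lower in the deleted list (1.75%, background 2.32% of 23967 bins) and 10 at least 10 points higher (1.75%, background 1.56%). Without chromosomes 6 and 14 both counts were 10 of 510 (1.96%), against 1.22% and 1.75%. The largest losses were on chromosome 17, in a gene-free bin 1100 kb from the end, at 38.2% and 21.3%, and on chromosome 3 over the noncoding gene Gm20752, at 38.3% and 25.2%. Bins in Dok6 on chromosome 18 (32.3% and 19.3%) and in Lrrc7 on chromosome 3 (28.4% and 15.5%) came next. The largest gain was in Ajap1, an adherens junction gene of chromosome 4 at the inner edge of the window, at 2.60% and 19.005%. It was followed by the bin with Ptchd3 on chromosome 11, at 22.6% and 38.2%. Chromosome 17 also held a gain over the noncoding gene Gm32512, at 28.7% and 43.7%, so that bins of the same window differed in opposite directions. Chromosome 13 held a gain in a bin 169 kb from Fgf10, at 25.6% and 40.6%.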

How the data were processed

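H3K9me3 was measured in 1 library per condition, and the 2 input libraries were not analysed here. Peaks were deposited by the authors as 1 broad peak list per condition. The submitters' processing notes name the build mm10 and the tools BWA 0.7.17-r1188, MACS2 and ChIPseeker 1.30.3. The MACS2 settings, the use of the inputs and any pooling are not given in the sources used here. Deposited values per peak are a fold enrichment (linear ratio), a −log10 q and a display score, which was not used, and 2 further columns (−log10 p, 1 per list) were left unused. Fold and q only ranked or filtered peaks inside their own list. Read depth is unknown. The peak names carry another replicate number than the sample titles, so lists were assigned by condition.

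Coverage is the percent of bases in peaks, clipped to the region. The rest of a chromosome runs from its first peak to the distal window. Partners overlap by 1 bp or more. Genes and promoters came from RefSeq tables of GRCm38.p6, which shares its chromosome sequences with mm10, and the gene table gave no strand, exons or introns. A gene window is the gene plus 5 kb on both sides. Named genes were, on each chromosome, the protein-coding gene in the window with the highest mean coverage, and the 6 with the largest and 6 with the smallest deleted-minus-control difference (1 per 100 kb, Gm, Rik and LOC names skipped). Members, lists and rules were chosen with earlier results of these data known, and the step of 250 kb, the 4 chromosomes set apart and the classes of gene content after seeing these values. Wilson intervals of 95% cover counting error only, and neighbouring peaks are not independent. No p-value was computed. Coverage and overlap code was tested on simulated data. The work used Python 3.11.15 with scipy 1.17.1, numpy 2.4.6, pandas 2.3.3 and, for figures, matplotlib 3.10.9.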

Additional observations from a re-analysis of the deposited data

Results flagged for a closer look

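Chromosome X enters no comparison of the report. Its distal 3 Mb were covered at 0.639% in the deleted list, with 27 peaks, and at 0.229% in the control list, with 9 peaks, so that the level was above the control. The rest of chromosome X was covered at 2.65% and 1.17%. With 1 library per condition the difference was not tested.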

How the results depend on the processing

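No paired analysis was possible because only 1 H3K9me3 library stood in each group, and leaving out a replicate could not be done. Of 166 alternative values of 16 results, 111 kept their direction and size, 42 moved and 13 turned direction. A value kept its size when it lay within 1.5 times of the reported one, or, for shares of peaks, within its Wilson interval. The cause of the changes was not tested. Values below are for the control and then the deleted list. The log2 ratio of distal to other coverage, -0.03 and 0.06 as reported, changed sign easily. In the control list it was 0.38 with windows of 1 Mb, 0.20 with 2 Mb, 0.24 for −log10 q of 2 or more, 0.0884 without chromosomes 6 and 14 and 0.44 against the next 30 Mb alone. The control value stayed negative with 5 Mb (-0.21), with 10 Mb (-0.48) and without chromosome 17 (-0.41). In the deleted list the ratio was -0.0308 with 5 Mb, -0.28 with 10 Mb, -0.0058 with peaks within 5 kb joined and -0.25 without chromosome 17. It was 1.24 and 1.51 for −log10 q of 3 or more, and -1.16 and -0.85 without chromosomes 3, 13, 17 and 18, where coverage was 2.42% and 2.92% and 2 and 3 windows lay above their rest.

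For −log10 q of 2 or more, coverage was 1.504% and 1.17%, 10 and 11 windows lay above their rest, the last 250 kb had medians of 4.86% and 4.24%, and the log2 ratio of deleted to control bases was -0.36, with 6 windows higher in the deleted list. For 3 or more, coverage was 0.368% and 0.278%, 12 control windows lay above their rest, the last 250 kb had medians of 1.89% and 0.162% and exceeded the remainder of the window on 9 chromosomes in the deleted list, and the log2 ratio was -0.41, again with 6 windows higher. With peaks joined, coverage was 10.4% and 11.0%, and the control median of the last 250 kb 16.7%.

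The share without a partner was 38.9% and 39.7% with windows of 1 Mb, 42.5% and 43.2% with 2 Mb, 50.5% with 5 Mb and 51.0% with 10 Mb in the deleted list, 25.3% and 30.8% for −log10 q of 2 or more, 65.8% and 68.3% where 50% of the peak had to overlap, 14.8% and 19.2% with a partner within 5 kb, and 51.8% without chromosome 17 in the deleted list. The share in protein-coding genes was 18.8% and 18.1% with 1 Mb, which is below the rest, 24.9% with 2 Mb and 24.7% with 10 Mb in the deleted list, and 33.3% and 35.0% without chromosome 17.

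Of 108 values of 27 named genes, 8 turned direction. The deleted-minus-control differences were then, in percentage points, 1.47 for Cr2, -1.44 for Cdh4, -3.05 for Ccdc7a and -0.0666 for Fgf14 at −log10 q of 2 or more, -0.201 for Cdh4 and -11.5 for Zfp950 at 3 or more, and 0.401 for Cr2 and -33.0 for Olfr781 with peaks joined. All settings for the last 250 kb and the named genes, and the sets of chromosomes left out other than 6 and 14, were chosen after seeing the data. Read depth and mappability of these ends are not known here.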
